A study of Mus musculus with 6 samples.

Results

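Genes for the noncollagenous part of the extracellular matrix, namely its glycoproteins, proteoglycans, elastic fibre and basement membrane proteins and the oxidases that crosslink it, were followed in whole kidneys of Vhl knockout and wild-type mice. The list held 42 genes chosen by function, of which 40 were found among the 25206 Entrez Gene rows of the arrays, and the remaining 2 are not analysed here. There were 3 whole-kidney samples of Vhl knockout and 3 of wild-type mice, all male C57BL/6 mice aged 3 months, each on 1 Affymetrix Mouse Gene 2.0 ST array. The Vhl knockout mice carried the floxed Vhl allele together with Hoxb7-Cre-GFP, a Cre recombinase under the Hoxb7 promoter, and the wild-type mice carried the floxed allele with no Cre named. In the paper, the wild-type mice used for tubule cell cultures carried Hoxb7-Cre-GFP, and whether the array controls did is not stated. The loss of Vhl and the presence of the transgene therefore cannot be told apart here. The Hoxb7 promoter is known for activity in the collecting duct lineage, and a whole-kidney extract holds many other cell types, interstitial and vascular cells among them. The authors gave each row a log2 signal made with RMA, a method that corrects the background and brings the arrays to a common scale. A log2 fold change of 1 is a doubling. The genotypes were compared in every row with limma, p-values were adjusted over all 25206 rows, and an adjusted p under 0.05 is called past the threshold.

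The extracellular matrix of the kidney is of 2 kinds, a thin basement membrane under every tubule and vessel, built from laminins, nidogens and perlecan, and a sparse interstitial matrix between them. Interstitial matrix is made mostly by fibroblasts and pericytes, and it consists of collagen fibrils, fibronectin, elastic fibres and small proteoglycans that coat the fibrils. Lysyl oxidases harden it by joining collagen and elastin chains to each other. VHL is part of the ubiquitin ligase that removes the HIF transcription factors when oxygen is present, and several lysyl oxidases are known HIF targets.

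Of the 40 matrix genes, 20 were higher in the Vhl knockout kidneys, 0 were lower and 20 did not pass the test. Of all rows, 2.77% passed the test, 2.24% as higher and 0.524% as lower. At an unadjusted p under 0.05 from limma, 33 were higher and 0 were lower, against 8.67% and 8.38% of all rows. The median log2 fold change was 0.63 over the 40 genes and -0.03 over all rows, and 39 of the 40 values were above 0. In 32 of the 40 genes every Vhl knockout array lay above every wild-type array, which held for 11.2% of all rows. The count of higher genes differed between the kinds of matrix protein: 8 of 12 adhesive and matricellular glycoproteins, 4 of 5 crosslinking oxidases, 5 of 8 proteoglycans and related leucine-rich repeat proteins, 2 of 8 elastic fibre and microfibril proteins and 1 of 7 basement membrane proteins. The median log2 fold changes of these groups were 0.88, 0.65, 0.76, 0.45 and 0.29 in the same order. Whether the groups differ from each other was not tested. In an extract of whole tissue, more cells of a type and more RNA per cell cannot be told apart.

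**Figure D1:**
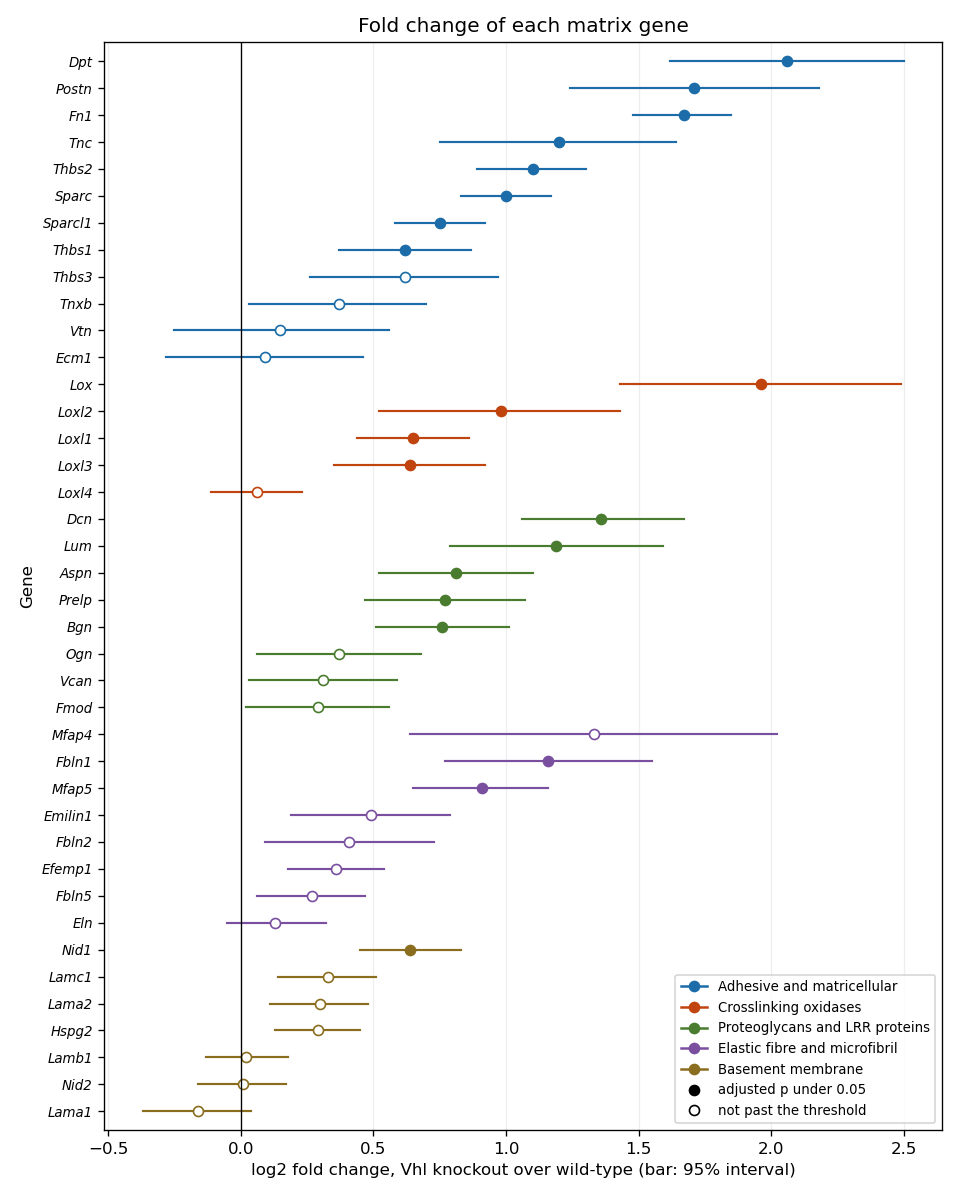
Log2 fold change of each of the 40 matrix genes (x axis, Vhl knockout over wild-type, 3 arrays each), with its 95% interval from limma as a bar, grouped by kind of protein. Filled points have an adjusted p under 0.05; they run up to 2.06 for Dpt, while most basement membrane genes lie between -0.16 and 0.33.

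Among the adhesive and matricellular glycoproteins, which bind cells to the matrix or change how they respond to it, Dpt, Postn and Fn1 had the largest changes. Dpt encodes dermatopontin, a small protein that binds decorin and collagen fibrils. Its log2 signal was 6.87, 7.28 and 7.48 in Vhl knockout replicates 1, 2 and 3, against 5.11, 5.44 and 4.90 on the wild-type arrays. The genotypes were separated by 1.44 at their nearest arrays. The log2 fold change was 2.06 (standard error, SE, 0.188, adjusted p = 0.00364), or 4.18-fold with a 95% interval of 3.08 to 5.67, and it ranked at 13 among all rows. Postn, the gene of periostin, a matricellular protein that is low in the healthy kidney and known to be raised in fibrosis, read 5.41, 5.11 and 5.93 in the knockout kidneys, against 3.94, 3.72 and 3.67 in the wild-type kidneys. The knockout arrays differed among themselves by more than the wild-type arrays did (SD 0.415 and 0.143), with replicate 3 the highest. The log2 fold change of Postn was 1.71 (SE 0.199, adjusted p = 0.0078). Fibronectin, the product of Fn1, forms the first fibrils on which collagen is laid down. Fn1 read 8.56, 8.63 and 8.49 in the Vhl knockout kidneys, against 6.92, 6.96 and 6.80 in the wild-type kidneys. Both genotypes were tight, with an SD of 0.0701 and 0.0821 (n = 3 each), and the gap between them was 1.53. This gave Fn1 a log2 fold change of 1.67 (SE 0.0798), or 3.18-fold with a 95% interval of 2.79 to 3.62, and an adjusted p of 0.000667, the smallest among the 40 genes.

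Tenascin C, the thrombospondins and the SPARC proteins are matricellular as well. Tnc, the tenascin gene that is typically switched on in wounds, read 5.94, 6.42 and 5.71 in the knockout kidneys, against 4.78, 4.66 and 5.05 in the wild-type kidneys, a log2 fold change of 1.20 (limma, adjusted p = 0.0218). Replicate 2 was the highest knockout array here, and the groups were 0.67 apart. Tnxb, the other tenascin gene of the list, read 5.22 to 5.74 in the knockout and 4.97 to 5.24 in the wild-type kidneys, and its groups overlapped (log2 fold change 0.37, adjusted p = 0.251). Sparc, a calcium-binding protein that assists collagen assembly, read 9.95, 9.92 and 9.96 in the Vhl knockout kidneys, against 8.86, 8.96 and 9.0 in the wild-type kidneys. The 3 knockout values lay within an SD of 0.0204, and the log2 fold change was 1.0 (95% interval 0.83 to 1.17, adjusted p = 0.00197). Its relative Sparcl1, which is also made by vessels, read 8.20, 8.06 and 8.16, against 7.39, 7.40 and 7.37 in the wild-type kidneys. The groups of Sparcl1 were 0.66 apart and the log2 fold change was 0.75 (adjusted p = 0.00403).

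The thrombospondin genes had unequal changes. Thbs2, an inhibitor of vessel growth that also shapes collagen fibrils, read 6.34, 6.24 and 6.34 in the knockout kidneys, against 5.14, 5.35 and 5.14 in the wild-type kidneys. The log2 fold change of Thbs2 was 1.10 (SE 0.0865, adjusted p = 0.00253). Thbs1, an activator of latent TGF-beta, read 8.54, 8.27 and 8.17 in the knockout kidneys, against 7.69, 7.78 and 7.66 in the wild-type kidneys. Its groups did not overlap, with 0.62 as log2 fold change and an adjusted p of 0.031. Thbs3 had the same log2 fold change of 0.62, with 5.31, 5.26 and 5.53 in the knockout kidneys, against 4.92, 4.43 and 4.91 in the wild-type kidneys, but did not pass the test (adjusted p = 0.0884). Wild-type replicate 2 lay below the other wild-type arrays for Thbs3, and the SD of the wild-type group was 0.281, against 0.0597 for Thbs1. The remaining members of this group were Vtn, the plasma adhesion protein vitronectin, with a log2 fold change of 0.15 (95% interval -0.25 to 0.56), and Ecm1, extracellular matrix protein 1, with 0.09 (95% interval -0.28 to 0.46). In both, the knockout and wild-type arrays overlapped.

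Promoter sequences from RefSeq are shown for Dpt, Postn, Thbs2 and Sparc, adhesive and matricellular genes with clear separation of the genotypes, and for Lamb1, a laminin gene with a log2 fold change of 0.02, as a contrast. They were chosen after the values were seen. Each is the 250 bases before the annotated start in GRCm38.p6, written 5′ to 3′ in the direction of transcription, and where a gene had several starts the one farthest downstream was used. Dpt lies at chr1:164796413-164796662 on the plus strand, Postn at chr3:54360857-54361106 on the plus strand, Thbs2 at chr17:14694263-14694512 on the minus strand, Sparc at chr11:55420081-55420330 on the minus strand and Lamb1 at chr12:31265043-31265292 on the plus strand. Capitals mark matches on either strand to ACGTG or GCGTG, which are cores of the hypoxia response element that HIF binds, to TGANTCA (AP-1), GGGCGG (the GC box), CCAAT and TATAAA.
Dpt: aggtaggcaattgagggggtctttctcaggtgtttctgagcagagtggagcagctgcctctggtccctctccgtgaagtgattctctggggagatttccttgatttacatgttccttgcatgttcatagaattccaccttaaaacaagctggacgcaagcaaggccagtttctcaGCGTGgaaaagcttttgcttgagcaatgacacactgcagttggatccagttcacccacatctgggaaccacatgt
Postn: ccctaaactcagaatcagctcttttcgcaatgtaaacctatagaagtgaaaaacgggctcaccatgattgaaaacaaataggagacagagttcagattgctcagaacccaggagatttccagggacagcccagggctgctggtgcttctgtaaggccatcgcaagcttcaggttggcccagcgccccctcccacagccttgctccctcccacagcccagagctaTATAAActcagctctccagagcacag
Thbs2: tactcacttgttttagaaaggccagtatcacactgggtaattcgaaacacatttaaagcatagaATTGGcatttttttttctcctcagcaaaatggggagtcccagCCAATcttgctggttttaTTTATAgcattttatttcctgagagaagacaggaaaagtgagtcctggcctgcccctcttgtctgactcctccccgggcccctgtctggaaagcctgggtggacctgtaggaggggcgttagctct
Sparc: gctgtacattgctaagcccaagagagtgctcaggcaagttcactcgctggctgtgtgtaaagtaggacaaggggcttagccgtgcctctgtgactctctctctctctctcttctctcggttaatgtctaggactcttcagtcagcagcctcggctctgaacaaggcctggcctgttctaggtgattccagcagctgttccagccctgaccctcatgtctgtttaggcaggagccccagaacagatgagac
Lamb1: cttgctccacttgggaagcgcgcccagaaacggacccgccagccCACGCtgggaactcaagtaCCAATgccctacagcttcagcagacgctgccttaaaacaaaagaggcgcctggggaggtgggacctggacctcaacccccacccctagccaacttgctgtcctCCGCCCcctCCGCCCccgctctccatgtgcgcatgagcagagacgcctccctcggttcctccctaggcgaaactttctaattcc
Dpt held GCGTG at bases -75 to -71 from the start and Postn a TATAAA at -26 to -21. In Thbs2 there was a CCAAT match on the printed strand at -144 to -140. On the opposite strand Thbs2 held CCAAT at -186 to -182 and TATAAA at -126 to -121. Sparc held no match. The contrast gene Lamb1 held CCAAT at -187 to -183 on the printed strand. On the opposite strand Lamb1 held GCGTG at -206 to -202 and GGGCGG at -84 to -79 and -75 to -70. Promoters were found for 25 of the 40 genes, 10 of the higher ones and 15 of the others. ACGTG was in 2 of these 10 and 0 of these 15, against 16.3% of the promoters of 27025 genes, and GCGTG in 3 of 10 and 6 of 15, against 27.8%. TGANTCA was in 0 of 10 and 3 of 15 (6.89% of all), GGGCGG in 4 of 10 and 8 of 15 (32.4%), CCAAT in 4 of 10 and 3 of 15 (34.0%) and TATAAA in 4 of 10 and 3 of 15 (13.0%). A match is a stretch of letters only, and factor binding was not measured.

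The lysyl oxidase family was higher in 4 of 5 members. Lox, the founding member, which oxidises lysines of collagen and elastin so that they can crosslink, read 7.30, 6.77 and 6.38 in the Vhl knockout kidneys, against 5.05, 4.66 and 4.86 in the wild-type kidneys. Replicate 1 was the highest knockout array and replicate 3 the lowest, which still lay 1.33 above the wild-type arrays. The log2 fold change of Lox was 1.96 (SE 0.225, adjusted p = 0.00762), or 3.88-fold with a 95% interval of 2.69 to 5.60. Loxl2, which crosslinks basement membrane collagen, read 5.75, 5.98 and 5.34 in the knockout kidneys, against 4.40, 4.93 and 4.81 in the wild-type kidneys. The call of Loxl2 was close to the threshold, at a log2 fold change of 0.98, for which the adjusted p was 0.0496. Loxl1, which is needed for elastic fibres, read 7.02, 6.75 and 6.83, against 6.25, 6.25 and 6.15 in the wild-type kidneys (log2 fold change 0.65, adjusted p = 0.0148). Loxl3 read 6.19, 5.93 and 5.90, against 5.20, 5.55 and 5.34 in the wild-type kidneys (log2 fold change 0.64, adjusted p = 0.0415). In Lox, Loxl1, Loxl2 and Loxl3 all knockout arrays lay above all wild-type arrays. Loxl4 read 5.06, 5.12 and 5.09 in the knockout kidneys, against 5.10, 4.96 and 5.02 in the wild-type kidneys. The Loxl4 groups overlapped, and its log2 fold change of 0.06 had a 95% interval of -0.11 to 0.23, whose upper end lay below the lower ends for the other family members (0.35 to 1.43). No test of the difference between family members was run. The calls of Loxl2 and Loxl3 were lost after quantile normalization of the arrays, with adjusted p-values of 0.0579 for Loxl2 and 0.0532 for Loxl3. Loxl2 did not pass with array weights either (limma, adjusted p = 0.0584). With 1 array left out, Lox passed in 6 of 6 fits, Loxl1 in 2, Loxl2 in 1 and Loxl3 in 0.

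Small leucine-rich proteoglycans coat collagen fibrils and set their width. Of the 8 genes for proteoglycans and related leucine-rich repeat proteins, 5 were higher past the threshold. Dcn, the gene of decorin, a proteoglycan that also binds TGF-beta, read 9.63, 9.17 and 9.40 in the knockout kidneys, against 7.90, 8.16 and 8.05 in the wild-type kidneys. The groups lay 1.02 apart, and the log2 fold change was 1.36 (SE 0.13, adjusted p = 0.00403), or 2.57-fold with a 95% interval of 2.08 to 3.18. Lum, which encodes lumican, read 4.99, 4.57 and 5.18 in the Vhl knockout kidneys, against 3.59, 3.94 and 3.63 in the wild-type kidneys, a log2 fold change of 1.19 (limma, adjusted p = 0.0153). Aspn, the gene of asporin, which competes with decorin for collagen, read 4.59, 4.38 and 4.23, against 3.63, 3.41 and 3.74 in the wild-type kidneys. All 3 knockout values were above all wild-type values, with a log2 fold change of 0.81 (limma, adjusted p = 0.0191). For Prelp, a protein that anchors basement membrane to the tissue beneath it, the arrays read 8.88, 8.46 and 8.72 in the knockout kidneys, against 7.90, 8.08 and 7.78 in the wild-type kidneys, a log2 fold change of 0.77 (limma, adjusted p = 0.0267). Bgn, the gene of biglycan, which can act on Toll-like receptors of macrophages when released, read 11.22, 11.05 and 11.08, against 10.18, 10.51 and 10.39 in the wild-type kidneys. The groups of Bgn were 0.53 apart, and its log2 fold change was 0.76 (adjusted p = 0.0145). The genes that did not pass were Ogn, for osteoglycin, with a log2 fold change of 0.37, Vcan, for the large proteoglycan versican, with 0.31, and Fmod, for fibromodulin, with 0.29, at adjusted p-values of 0.222 to 0.269. Their 95% intervals all lay above 0, from a lowest end of 0.02 to a highest end of 0.68. Vcan was dim on all arrays, at 3.71 to 3.92 in the knockout and 3.24 to 3.63 in the wild-type kidneys. The array medians over all rows were 5.019 to 5.055. Some called genes were dim in the wild-type kidneys too, with Postn at 3.67 to 3.94, Lum at 3.59 to 3.94 and Aspn at 3.41 to 3.74.

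Several of these genes lie beside each other in the RefSeq gene order. Dcn and Lum are followed by Kera and Epyc, whose log2 fold changes were -0.07 and 0.28 (adjusted p of 0.729 and 0.612). In the run Ecm2, Aspn, Omd and Ogn the log2 fold changes were 0.34, 0.81, 0.37 and 0.37, and Aspn alone passed the test. Prelp, with 0.77, stands between Optc, with -0.09, and Fmod, with 0.29. Thbs2 neighbours Smoc2, the gene of a SPARC-related protein, which read 7.04, 7.05 and 7.14 in the Vhl knockout kidneys, against 5.08, 5.48 and 5.28 in the wild-type kidneys. With a log2 fold change of 1.80 (limma, adjusted p = 0.00136), Smoc2 had a larger value than Thbs2, with 1.10. Vcan lies beside Hapln1, a gene for a link protein of hyaluronan, whose log2 fold change was -0.46 (adjusted p = 0.0908), against 0.31 for Vcan. The 3 runs with Dcn, Aspn and Prelp thus held genes with and without a call, Smoc2 and Thbs2 both passed, and neither Vcan nor Hapln1 did.

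**Figure D2:**
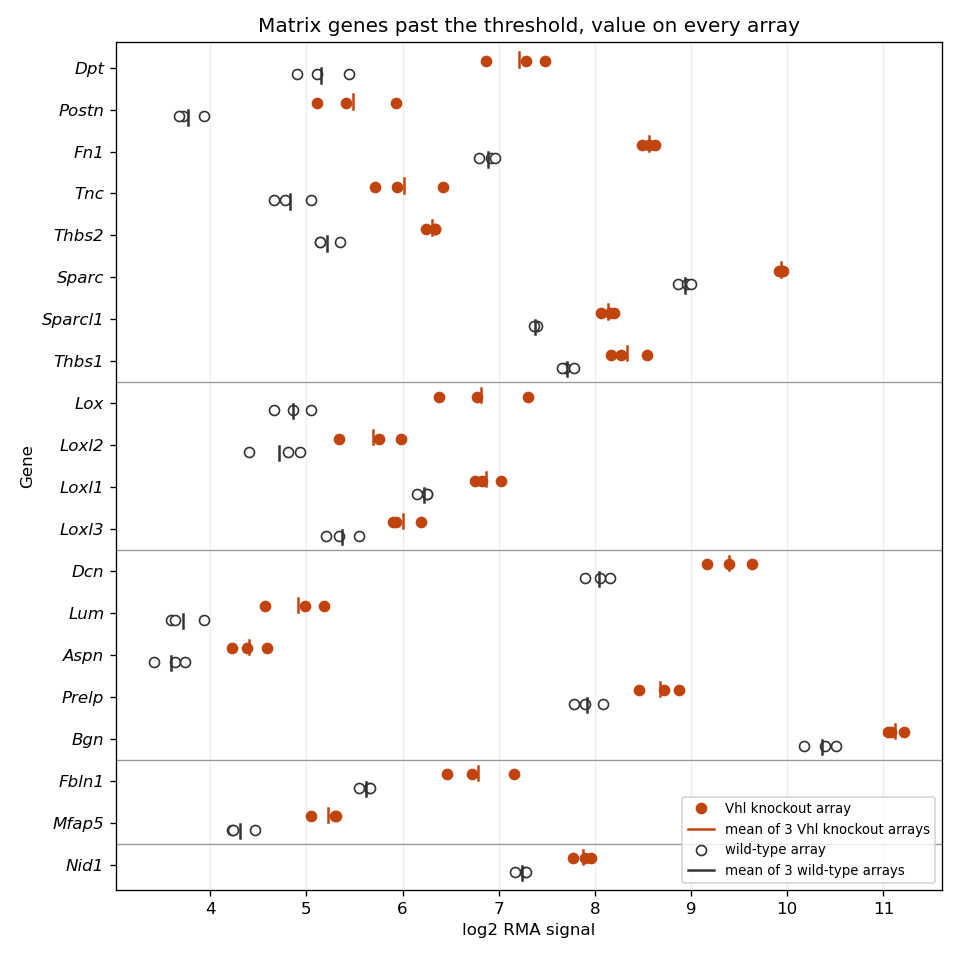
Log2 RMA signal (x axis) of the 20 matrix genes past the threshold on every array, with the mean of each genotype as a vertical tick. Filled points are the 3 Vhl knockout arrays and open points the 3 wild-type arrays. The groups do not overlap in any of the 20 genes, which were picked by the test on these same values. The widest gap is for Fn1 (1.53).

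Of the 8 measured genes of elastic fibres and their microfibrils, 2 passed the test. Fbln1, the gene of fibulin 1, a protein of elastic fibres and basement membranes, read 7.16, 6.46 and 6.72 in the knockout kidneys, against 5.65, 5.66 and 5.55 in the wild-type kidneys. Its wild-type arrays were close together (SD 0.0594) and the knockout arrays more spread (SD 0.351), with replicate 1 the highest. The log2 fold change of Fbln1 was 1.16 (adjusted p = 0.0153). Mfap5, for a microfibril glycoprotein, read 5.30, 5.05 and 5.31 in the Vhl knockout kidneys, against 4.23, 4.47 and 4.24 in the wild-type kidneys, a log2 fold change of 0.91 (limma, adjusted p = 0.00878). Mfap4, another microfibril-associated glycoprotein, read 5.67, 5.23 and 6.26, against 3.93, 4.77 and 4.47 in the wild-type kidneys. Its log2 fold change of 1.33 was the largest of this group, but the arrays of both genotypes were spread (SD 0.518 and 0.429), and the adjusted p was 0.0673. Emilin1, an elastin-microfibril interface protein, had 0.49 (adjusted p = 0.108), Fbln2 0.41 (adjusted p = 0.188), Efemp1, a fibulin, 0.36 (adjusted p = 0.0588) and Fbln5, which helps elastin to assemble, 0.27 (adjusted p = 0.183). All knockout arrays were above all wild-type arrays in these 4 genes, by gaps of 0.08 for Fbln2 to 0.27 for Efemp1. Eln, the gene of elastin itself, read 5.33, 5.34 and 5.38 in the knockout kidneys, against 5.10, 5.25 and 5.30 in the wild-type kidneys. The Eln groups were 0.03 apart, and the log2 fold change was 0.13 (95% interval -0.05 to 0.32).

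Basement membrane genes had the smallest median change of the 5 groups, at 0.29. Nid1, for the linker protein nidogen 1, was the exception that passed the test, with 7.96, 7.77 and 7.90 in the Vhl knockout kidneys, against 7.27, 7.28 and 7.17 in the wild-type kidneys. The log2 fold change of Nid1 was 0.64 (SE 0.0809, adjusted p = 0.0108). Nid2, the second nidogen, read 6.49, 6.59 and 6.61 in the knockout kidneys, against 6.57, 6.55 and 6.55 in the wild-type kidneys, and its log2 fold change of 0.01 had a 95% interval of -0.16 to 0.17, below that of Nid1 (0.45 to 0.83). The difference between the nidogens was not tested. The laminin chains, which form the sheet to which nidogens bind, had log2 fold changes of 0.33 for Lamc1 (adjusted p = 0.0839), 0.30 for Lama2 (adjusted p = 0.12), 0.02 for Lamb1 (adjusted p = 0.905) and -0.16 for Lama1 (adjusted p = 0.406). Lama1 was the only gene of the 40 with a value below 0, and its groups overlapped, with 5.83 to 5.99 in the knockout and 5.97 to 6.18 in the wild-type kidneys. Hspg2, the gene of perlecan, the heparan sulphate proteoglycan of basement membranes, read 7.60, 7.59 and 7.59 in the knockout kidneys, against 7.27, 7.34 and 7.30 in the wild-type kidneys. The groups did not overlap, but at a log2 fold change of 0.29 the adjusted p of Hspg2 was 0.0751. Lamc1 and Hspg2, and Efemp1 of the elastic fibre group, passed with trend and robust eBayes and when dim rows were left out. Lama2, Mfap4 and Thbs3 passed when dim rows were left out (adjusted p of 0.0474, 0.0347 and 0.0434) but not with trend and robust eBayes (0.0677, 0.0506 and 0.056). All 7 basement membrane genes lay above the median of all rows on every array.

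Other matrix genes were listed by function and not by how they moved. Of 97 measured genes, 14 were higher and 0 were lower, against 2.24% and 0.524% of all rows, with a median log2 fold change of 0.13. At an unadjusted p under 0.05 from limma 34 were higher and 8 lower, against 8.67% and 8.38% of all rows. The lower count was thus close to the share over all rows. Whether these genes differ as a group from the 40 above was not tested. Of the 14 genes, 9 were among the 32 other glycoproteins. They included Smoc2, as above, Mgp, the inhibitor of calcification matrix Gla protein, with 1.24 (adjusted p = 0.00106), Tgfbi, a TGF-beta induced adhesion protein, with 1.13 (adjusted p = 0.00857) and Spon1, for spondin 1, with 1.12 (adjusted p = 0.0021). Among 16 enzymes that process or crosslink collagen 3 were higher, namely Bmp1, which cleaves procollagen and activates lysyl oxidases, with 0.88 (adjusted p = 0.0101), and the lysyl hydroxylases Plod2 with 0.70 (adjusted p = 0.00775) and Plod1 with 0.44 (adjusted p = 0.0233). Plod2 is a known HIF target, but a part of HIF in these values was not tested. In the same list P4ha1, with 0.12 (limma, adjusted p = 0.764), and P4ha2, with 0.25 (adjusted p = 0.389), did not pass. Of 21 other proteoglycans and hyaluronan genes 1 was higher, the hyaluronan receptor Cd44 with 1.09 (adjusted p = 0.0217), and 0 were lower. At an unadjusted p under 0.05 from limma 2 of the 21 were higher and 4 lower, against 8.67% and 8.38% of all rows. Frem1, with 0.72 (adjusted p = 0.00939), was the 1 of 13 other basement membrane genes that passed, and 0 of 15 other elastic fibre and microfibril genes did, where at an unadjusted p under 0.05 from limma 5 were higher and 2 lower.

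Some lists of markers for matrix-producing and other cells also held higher genes. Of 9 fibroblast and pericyte markers 7 were higher, among them Pdgfrb with a log2 fold change of 0.77 (limma, adjusted p = 0.00585) and Pdgfra with 0.59 (adjusted p = 0.0252). The 2 that did not pass were Notch3 with 0.46 (adjusted p = 0.0788) and Cspg4 with -0.20 (adjusted p = 0.454). The mean distance of these 9 markers from the wild-type mean was 0.75, 0.79 and 0.85 on the arrays of knockout replicates 1, 2 and 3, and that of the 40 matrix genes was 0.78, 0.61 and 0.71. Of the 9 markers 3 are collagen genes (Col1a1, Col1a2 and Col3a1) and so matrix genes themselves. Without them, an alternative chosen after seeing the data, 4 of the other 6 markers were higher and the mean distance was 0.60, 0.51 and 0.56. Of 6 smooth muscle markers 2 were higher, of 9 macrophage markers 8 and of 8 endothelial markers 1. Of 5 urothelial markers 4 were higher and of 4 mesothelium and capsule markers 2. In either direction 0 of 6 adipocyte, 0 of 8 tubule, 0 of 4 podocyte and 0 of 6 adrenal markers passed. Over all rows 2.24% were higher and 2.77% passed in either direction, so a count of 0 is near that share in lists this short. Of the 6 adrenal markers 3 were in the lower quartile on all arrays. Upk1b, a uroplakin of the urothelium, had a log2 fold change of 1.44 (limma, adjusted p = 0.00523), with 6.77 to 7.31 in the knockout and 5.41 to 5.59 in the wild-type kidneys. The 2 higher mesothelium and capsule markers were Krt19, a keratin also made by other epithelia, with 1.61 (adjusted p = 0.00642) and Upk3b with 0.58 (adjusted p = 0.0379), while the defining marker Msln had 0.17 (adjusted p = 0.478). The mean distance of these 4 markers from the wild-type mean was 0.73, 0.56 and 0.49 in knockout replicates 1, 2 and 3. The tubule markers had mean signals of 10.74 to 10.80 in the knockout and 10.81 to 10.82 in the wild-type kidneys. All 8 lay above the median of all rows on every array. The part of other cell types in the matrix genes was not tested.

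Adipocyte markers were high on 2 of the 3 knockout arrays. Their mean over 6 genes was 7.33 and 6.48 in knockout replicates 1 and 3, against 4.90 in knockout replicate 2 and 4.63 to 5.10 in the wild-type kidneys. Matrix genes were above the wild-type mean in all 3 knockout replicates, but not by the same amount. The proteoglycans lay 0.90, 0.55 and 0.75 above it in replicates 1, 2 and 3 and the elastic fibre genes 0.75, 0.44 and 0.71, so replicate 2 was the lowest for both. The adhesive and matricellular genes lay 0.96, 0.89 and 0.99 above it, and the basement membrane genes 0.22, 0.19 and 0.20. For the crosslinking oxidases, with 1.03, 0.87 and 0.67, replicate 3 was the lowest. Among the 40 genes, knockout replicate 2 was the lowest of the knockout arrays in 22 and the highest in 6. Over all 25206 rows knockout replicate 2 was the lowest in 8123 and the highest in 8206. Of the wild-type arrays, replicate 2 was the highest in 23 of the 40 genes, against 8862 of all rows. With the mean adipocyte signal as a covariate, 5 of the 20 higher genes passed, namely Fn1, Dpt, Sparc, Thbs2 and Dcn, whose log2 fold changes were then 1.70, 2.21, 1.0, 1.04 and 1.14. Over all rows, 91 were higher in that fit, against 565 without the covariate. The median log2 fold change of the 20 genes was 0.87 with the covariate and 0.99 without it. Their median SE was 0.138 with it and 0.122 without it. Without knockout replicates 1 and 3 none of the 20 passed (adjusted p of 0.0645 for Fn1 to 0.323 for Loxl3). That fit rests on 1 knockout array, assumed to vary like the wild-type arrays, and called 8 of all rows. The log2 fold changes were then 1.73 for Fn1, 2.13 for Dpt, 1.91 for Lox, 1.34 for Postn and 1.14 for Dcn.

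**Figure D3:**
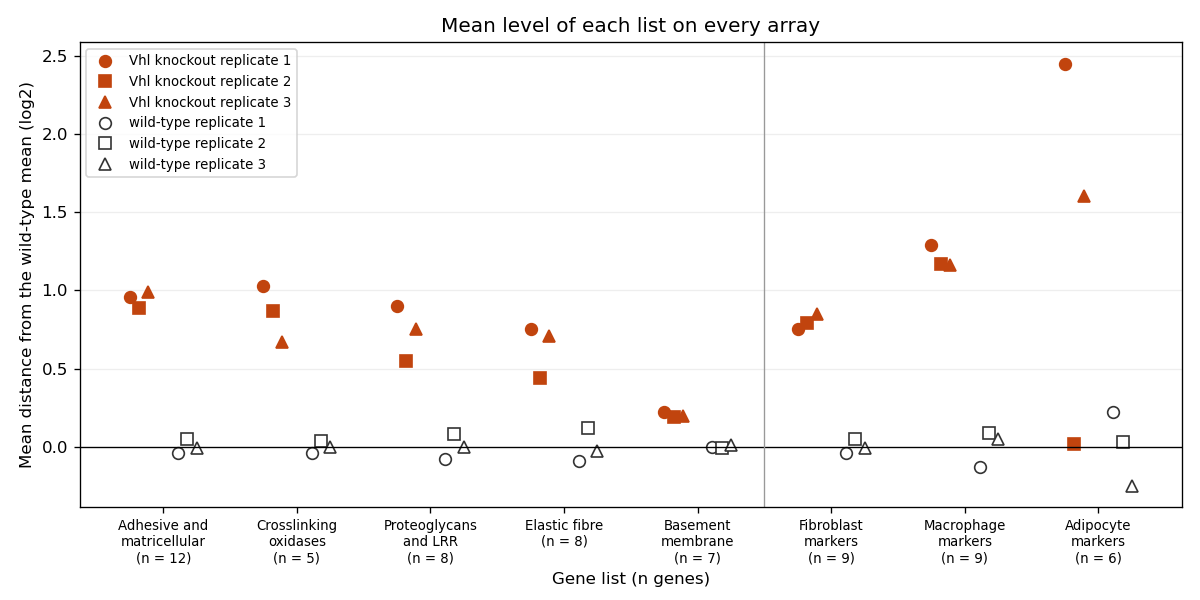
Mean distance of each gene list from its wild-type mean (y axis, log2) on every array, with the Vhl knockout arrays left of the wild-type arrays. The knockout arrays lie 0.44 to 1.03 above the wild-type mean for the matrix groups other than basement membrane (0.19 to 0.22), whereas the adipocyte markers lie 2.45, 0.02 and 1.60 above it in replicates 1, 2 and 3.

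Which single genes kept the call differed when any 1 array was left out. The number of higher matrix genes was then 11 to 16 of 40, with 11 without wild-type replicate 1 or 3, 12 without knockout replicate 1 or wild-type replicate 2, 15 without knockout replicate 3 and 16 without knockout replicate 2. Over all rows, 223 to 361 were higher in these fits, against 565 with all 6 arrays. Dpt, Postn, Fn1, Thbs2, Sparc, Sparcl1, Lox, Dcn, Mfap5 and Nid1 passed each time. Loxl3 passed in none of the 6 fits, with an adjusted p of 0.0511 to 0.131, and Loxl2, Prelp and Thbs1 passed in 1 each. Tnc, Fbln1, Loxl1 and Aspn passed in 2, and Lum and Bgn in 3. With 1 array left out, log2 fold changes of the 20 genes were between 0.51 for Thbs1 without knockout replicate 1 and 2.23 for Dpt without that array.

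**Figure D4:**
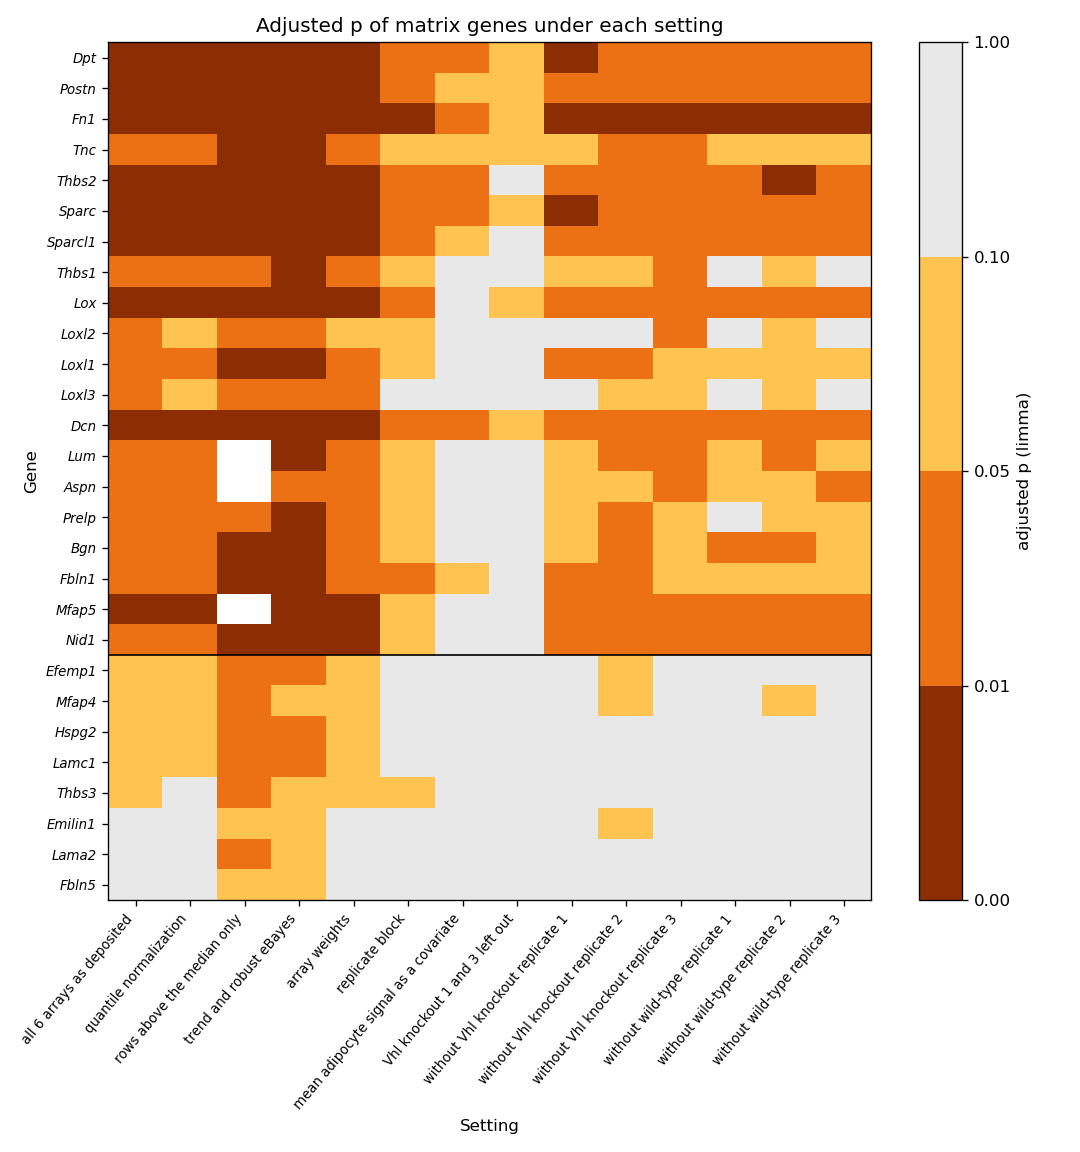
Adjusted p from limma (colour scale) of the 20 matrix genes past the threshold, above the black line, and of the 8 with the next smallest adjusted p, below it, for all 6 arrays as deposited and under 13 other settings. White cells were not tested because the row was dim; Fn1, Dpt, Sparc, Thbs2 and Dcn stayed under 0.05 in every setting but the one that leaves out knockout replicates 1 and 3.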

How the data were processed

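RNA of 3 Vhl knockout and 3 wild-type whole-kidney samples was profiled on 1 array per sample. Log2 signals, deposited by the authors, were made with RMA (no version is given), 1 value for each Entrez Gene ID. The authors further deposited a table with the same log2 values, equal in all 25206 rows, and their own comparison of the genotypes (a moderated statistic, its p-value and a q-value), which was not used. Columns of values per sample left unused numbered 0. Rows were named through the platform annotation, updated by Entrez ID with RefSeq (GRCm38.p6). Of the rows, 23185 had a symbol and 2021 had none here, and 2 listed genes are not reported here. The paper states no test for the arrays.

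The genotypes were compared row by row with lmFit and eBayes of limma 3.58.1 (R 4.3.3), with no term but genotype and 3.27 prior degrees of freedom. P-values were adjusted by Benjamini-Hochberg across the whole table, and 0.05 was the threshold. Tables and plots used Python 3.11.15, pandas 2.3.3 and matplotlib 3.10.9. On simulated data for Vhl knockout against wild-type over 25206 rows, 50 rows were changed at each size, and the fit recovered 36% of those changed by 0.5 on the log2 scale, 78% of those changed by 1 and 96% of those changed by 2, while 8 unchanged rows were called. Array medians differed by at most 0.036. Precision is limited by the number of arrays, and separate mice are not stated for the arrays, so p-values measure the spread between these samples. Values were given on every array for matrix genes past the threshold and for those with an absolute log2 fold change over 0.5 that missed it. Of the other matrix genes, up to 4 past the threshold per sub-list, those with the largest change, were named with their fold change. The array values of Eln, Hspg2, Loxl4, Nid2 and Smoc2, the neighbouring genes, P4ha1, P4ha2 and the single markers named were added after their values were seen. Alternatives were another normalization, filter and variance model, array weights, a replicate block, an adipocyte covariate, a stricter threshold and arrays left out. The genes, lists and settings were chosen with earlier results of these data known.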

Additional observations from a re-analysis of the deposited data

How the results depend on the processing

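Settings that left the count of higher matrix genes within 1.5 times of 20 were quantile normalization (18), leaving out dim rows, those not over the median of 3 or more arrays (23 of 35 tested), trend and robust eBayes (23), array weights (19), and knockout replicate 2 (16) or 3 (15) left out. It was 9 with the replicate number as a block, 5 with the mean adipocyte signal as a covariate, 0 without knockout replicates 1 and 3, 9 at an adjusted p threshold of 0.01 and 11 or 12 with 1 of the other 4 arrays left out, a range of 11 to 16 over all 6 arrays, and the count of lower matrix genes was 0 in all of them. No value of a called gene changed sign. Other matrix genes that were higher, 14 at first, numbered 11 with the block, 4 with the covariate, 0 without knockout replicates 1 and 3 and 8 at the threshold of 0.01, and with 1 array left out 10 to 14 were higher and 0 to 1 lower. Over all rows, 565 were higher and 132 lower. The higher and lower rows numbered 246 and 24 with the block, 91 and 3 with the covariate, 8 and 0 without knockout replicates 1 and 3, 176 and 7 at the threshold of 0.01, and 223 to 361 and 21 to 52 with 1 array left out. The lower rows numbered 262 with dim rows left out and 268 with trend and robust eBayes. Some settings use fewer arrays or rows, and the block and the covariate add terms to the fit. The cause of these shifts was not tested. The replicate numbers share only a number: deviations of same-numbered arrays from their genotype means correlated at 0.036, 0.073 and -0.100, and 1 of the 3 knockout arrays correlated best with its own number. Under the block Aspn, Bgn, Loxl1, Loxl2, Loxl3, Lum, Mfap5, Nid1, Prelp, Thbs1 and Tnc did not pass, with adjusted p-values of 0.0559 to 0.12 at the same log2 fold changes. Depth does not apply to arrays. Of the 40 genes, 0 were in the lower quartile on all arrays, and 25 lay above the median of every array. The called genes Aspn, Lum and Mfap5 were not tested when dim rows were left out.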
